A study of Homo sapiens with 18 samples.

Results

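The 10 genes described here encode enzymes of glycolysis, which turns glucose into pyruvate, and of the last step to lactate: HK2, GPI, PFKP, ALDOA, TPI1, GAPDH, PGK1, PGAM1, ENO1 and LDHA. They were chosen by name, and all 10 are among the 10975 genes that the RPKM table of the first WT series lists. RPKM are reads scaled to transcript length and to the mapped reads of the library, so that levels can be set side by side between genes. The cells were H1 (WA01), an established line of human embryonic stem cells (hESCs). Unmodified cells (WT) were left without Wnt3a (0 h) or treated with 1 nM Wnt3a, a secreted WNT ligand, for 12, 24 or 48 h, in 2 series of 4 libraries called here the first WT series and WT Rep. 2. The same times were sequenced in dZF1 and dZF2, which are 2 single-cell clones in which CRISPR-Cas9 removed the part of SP5 that codes for its zinc fingers from both alleles. SP5 is a transcription factor induced by WNT signaling. Each series has 1 library per time, and the second WT series and the clones are given for 497 genes only. The differences within the first WT series therefore carry no p-value, and only ALDOA among the members could be set against other series.

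Glycolysis splits a sugar of 6 carbons into smaller sugar phosphates in its first steps, which spend ATP, and recovers ATP in its later steps. Pluripotent stem cells are known for a high rate of glycolysis and for releasing much of the glucose carbon as lactate. Hexokinase, phosphofructokinase and pyruvate kinase catalyse the steps that are practically irreversible in the cell, and several steps are served by isozymes from separate genes. RNA levels do not give enzyme activity or flux.

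The labels were first checked on marker genes. All 11 mesendoderm and endoderm markers were at least 1.5-fold higher at 48 h than at 0 h in the first WT series. SOX17, an endoderm transcription factor, went from 0 to 89.6 RPKM, and EOMES, a mesendoderm one, from 0 to 139.8 RPKM. Of 11 markers of undifferentiated cells, 6 were at least 1.5-fold lower at 48 h, while POU5F1, which maintains pluripotency, went from 294.6 to 243.1 RPKM. Of 12 markers of other cell types only COL1A1 was listed, at 4.2 RPKM at 0 h and 2.6 RPKM at 48 h. SP5 itself was at 0, 49.8, 90.5 and 135.7 RPKM at 0, 12, 24 and 48 h. In bulk RNA, fewer cells of a type and less RNA per cell cannot be told apart.

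The 10 enzymes spanned a wide range of levels, and their order changed little over 48 h. GAPDH, which makes the first high-energy intermediate of the later steps, was the highest at every time, between 1855.2 and 2231.7 RPKM. ENO1, an enolase, followed with 813.2 to 897.3 RPKM, and LDHA, which converts pyruvate to lactate, with 254.5 to 366.9 RPKM. PGK1, which transfers phosphate to ADP, was measured at 169.8 to 193.9 RPKM, ALDOA, which cleaves fructose 1,6-bisphosphate, at 146.1 to 226.2 RPKM, and TPI1, which interconverts the triose phosphates, at 139.6 to 175.4 RPKM. The ranges of these 3 genes overlapped, so that their order is not fixed, and PGK1 and TPI1 were at 169.8 and 169.3 RPKM at 0 h. GPI, which isomerises glucose 6-phosphate, came next at 45.8 to 61.5 RPKM, then PGAM1, a phosphoglycerate mutase, at 37.6 to 44.1 RPKM, HK2, a hexokinase, at 27.7 to 33.2 RPKM, and PFKP, a phosphofructokinase, at 18.4 to 27.4 RPKM. These last 4 ranges did not overlap. By mean RPKM, GAPDH ranked 3 and PFKP 3814 among the listed genes.

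**Figure D1:**
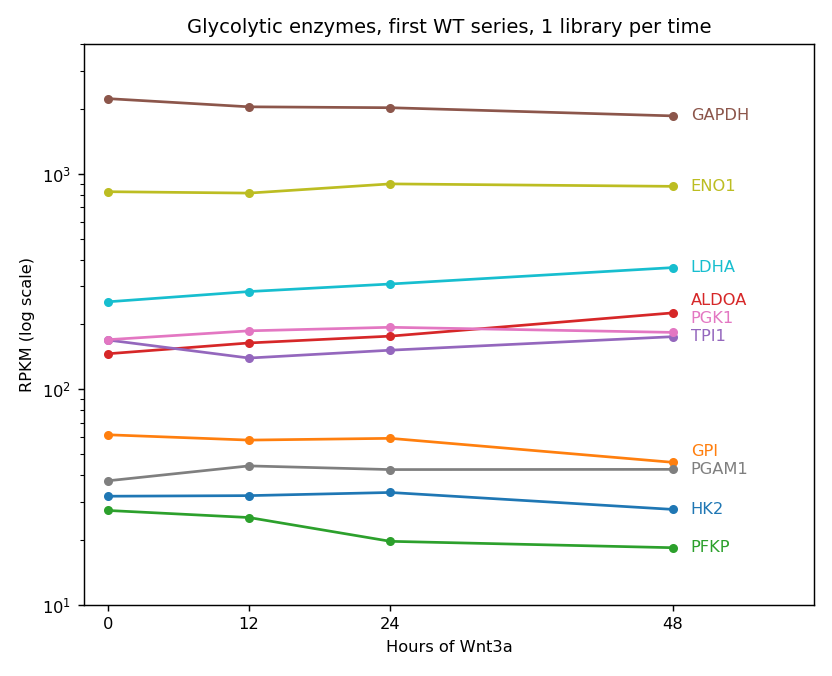
RPKM (log scale) of the 10 enzymes against hours of Wnt3a in the first WT series, each point being 1 library. GAPDH stays on top with 1855.2 RPKM at 48 h and PFKP at the bottom with 18.4 RPKM, and the lines of ALDOA and LDHA climb.

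Summed over the 10 genes, the level stayed nearly flat while its makeup shifted. In time order the sum was 3955, 3791, 3907 and 3816 RPKM, which is 1.01%, 0.968%, 0.992% and 0.988% of the RPKM of all listed genes. GAPDH and ENO1 together made up 77.3% of the members' sum at 0 h and 71.5% at 48 h. Without GAPDH, the sum of the other 9 enzymes was 13.7% higher at 48 h than at 0 h, and with it the sum changed by -3.53%.

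The enzymes did not move as a block. Changes are given as log2((RPKM + 1)/(RPKM at 0 h + 1)), and a gene is counted as changed past 1.5-fold, which is 0.58 on this scale. At 12 h 0 of 10 members were past this threshold in either direction, where 4.02% of all listed genes were higher and 3.74% lower. At 24 h the count was again 0 of 10, against 6.96% and 5.24% of the listed genes. At 48 h 1 of 10 was higher and 0 of 10 lower, against 10.4% and 9.13%. At a looser threshold of 0.32 on the log2 scale, 2 members were higher (ALDOA and LDHA) and 2 lower (GPI and PFKP) at 48 h, and 21.1% of the listed genes were past it in each direction. The counts were thus near the shares of all listed genes. The median change of the members was -0.01, 0.09 and 0.07 at 12, 24 and 48 h, and that of all listed genes -0.01, -0.01 and -0.0027.

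The size of the members' changes was also close to that of other well expressed genes. Among the 4286 genes with a mean of at least 20 RPKM, the median absolute change was 0.12, 0.15 and 0.22 at 12, 24 and 48 h. For the 10 enzymes it was 0.13, 0.16 and 0.23. At 48 h 6 of the 10 enzymes lay within the middle 50% of all listed genes, which ran from -0.27 to 0.27. GAPDH was at the edge of this band. It lay outside the narrower middle 50% of the 4286 genes, which ran from -0.25 to 0.18.

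**Figure D2:**
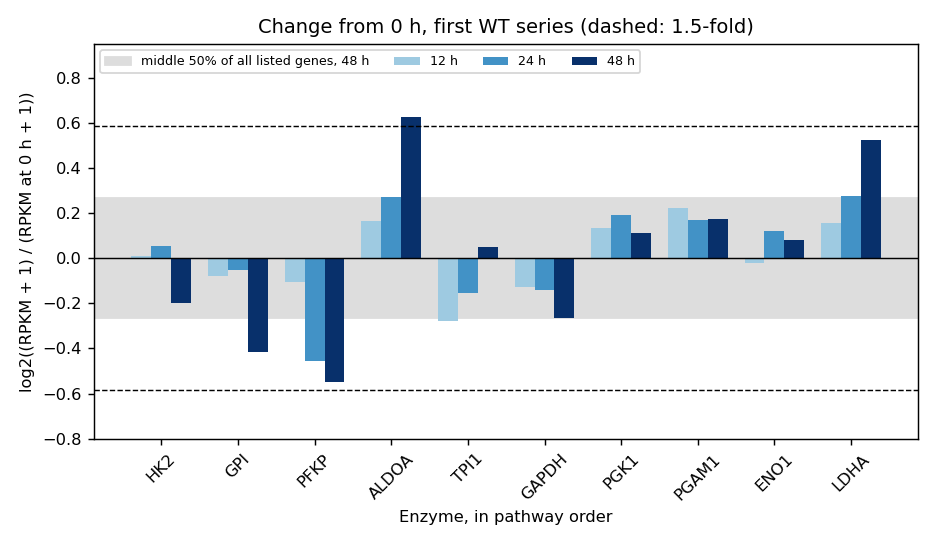
Change from 0 h on the log2(RPKM + 1) scale for each enzyme at 12, 24 and 48 h in the first WT series, 1 library per bar, with dashed lines at 1.5-fold and a grey band over the middle 50% of all listed genes at 48 h. Only the 48 h bar of ALDOA passes a dashed line, at 0.63, while the bars of HK2, GPI and PFKP at 48 h point down.

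The first 3 enzymes of the pathway were all lower at 48 h. HK2, which traps glucose in the cell by phosphorylation, was at 31.9, 32.1, 33.2 and 27.7 RPKM at 0, 12, 24 and 48 h, a change of -0.20 at 48 h. It was flat until 24 h and lowest at 48 h. GPI was at 61.5, 58.1, 59.2 and 45.8 RPKM, and its change of -0.42 came almost wholly between 24 and 48 h, where it was -0.36. PFKP, which commits fructose 6-phosphate to glycolysis, was at 27.4, 25.4, 19.7 and 18.4 RPKM. Its drop came earlier, with -0.35 of its -0.55 between 12 and 24 h, and it was the largest decrease among the members. Only 10.2% of the listed genes had a change at 48 h as low as that of PFKP or lower.

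ALDOA and LDHA were the members with the largest increases, and both were higher at each time than at the one before. ALDOA was at 146.1, 164.0, 176.4 and 226.2 RPKM, with changes of 0.17, 0.27 and 0.63, and at 48 h it stood 1.54-fold above 0 h. LDHA was at 254.5, 284.0, 307.9 and 366.9 RPKM, with changes of 0.16, 0.27 and 0.53, or 1.44-fold at 48 h. ALDOA lay at the 90.5 percentile of changes at 48 h and LDHA at the 88.0 percentile. The interval from 24 to 48 h held 0.36 of the log2 change of ALDOA and 0.25 of that of LDHA.

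Promoter windows of ALDOA and LDHA, and of PFKP, the member with the largest decrease, are shown because SP5 belongs to a family of factors that bind GC boxes. They are RefSeq windows of 300 bases on build GRCh38.p14, given 5′ to 3′ on the gene's strand, and for each gene the window nearest to the start of its canonical transcript was taken. Capitals mark GGGCGG, the GC box, and ACGTG, the core of the hypoxia response element, on either strand.
ALDOA, chr16:30065510-30065809, plus strand: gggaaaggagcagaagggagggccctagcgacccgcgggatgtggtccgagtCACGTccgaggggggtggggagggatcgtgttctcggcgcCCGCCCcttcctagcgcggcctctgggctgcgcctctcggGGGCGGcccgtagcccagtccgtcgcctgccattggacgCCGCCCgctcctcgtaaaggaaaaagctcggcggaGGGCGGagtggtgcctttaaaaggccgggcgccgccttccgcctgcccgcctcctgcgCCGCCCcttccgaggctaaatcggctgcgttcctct
LDHA, chr11:18394313-18394612, plus strand: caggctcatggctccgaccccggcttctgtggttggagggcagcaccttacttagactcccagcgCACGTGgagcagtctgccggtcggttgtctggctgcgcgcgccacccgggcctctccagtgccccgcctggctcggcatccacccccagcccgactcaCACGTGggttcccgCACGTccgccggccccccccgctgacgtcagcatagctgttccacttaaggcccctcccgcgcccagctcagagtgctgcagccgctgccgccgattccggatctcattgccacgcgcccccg
PFKP, chr10:3067720-3068019, plus strand: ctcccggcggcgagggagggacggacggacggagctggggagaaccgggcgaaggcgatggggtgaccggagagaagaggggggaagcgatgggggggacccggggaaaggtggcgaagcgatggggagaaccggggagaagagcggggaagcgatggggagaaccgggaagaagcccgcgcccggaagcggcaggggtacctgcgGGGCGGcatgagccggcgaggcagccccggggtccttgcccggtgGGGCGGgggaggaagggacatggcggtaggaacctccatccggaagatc
The ALDOA window held 5 GC boxes and 1 ACGTG, the LDHA window 0 GC boxes and 5 matches to ACGTG, and the PFKP window 2 GC boxes and 0 ACGTG. PFKP does not stand for the other enzymes that were lower at 48 h. Their nearest windows held 4 GC boxes and 2 ACGTG (HK2), 0 and 1 (GPI), and 2 and 2 (GAPDH). Each CACGTG, the E-box bound by MYC and related factors, counts as 2 matches to ACGTG because it reads the same on both strands, and the LDHA window held 2 of them. The ALDOA and LDHA windows are placed on the canonical start itself, at a distance of 0 bases. The PFKP window is placed on a start 422 bases away and lies wholly downstream of the canonical one. Over the nearest windows of the 10 members, 8 held GGGCGG, 6 held ACGTG and 2 held CACGTG. Those of GAPDH and PGAM1, at distances of 747 and 1627 bases, also lie wholly downstream of the canonical start. Of all 35116 windows in the RefSeq table, 44.95% held GGGCGG, 21.4% held ACGTG and 7.26% held CACGTG. The counts depend on the window, since a second LDHA window held 4 GC boxes and 0 ACGTG and another PFKP window 5 GC boxes and 1 ACGTG. A match is a run of letters and not a site known to be bound.

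The other 5 enzymes stayed within 0.28 of their 0 h level on the log2 scale. TPI1 was at 169.3, 139.6, 151.8 and 175.4 RPKM, so that it was lowest at 12 h (-0.28) and back near its starting level at 48 h (0.05). GAPDH was at 2231.7, 2044.2, 2024.7 and 1855.2 RPKM, and was lower at each time than at the one before. Its change of -0.27 at 48 h is a decrease of 16.9%, and in RPKM it is the largest difference of any member, -376.5. PGK1 was at 169.8, 186.7, 193.9 and 183.6 RPKM, with its highest value at 24 h and a change of 0.11 at 48 h. PGAM1 was at 37.6, 44.1, 42.4 and 42.5 RPKM, and its whole increase was present at 12 h. ENO1 was at 825.5, 813.2, 897.3 and 874.0 RPKM and had the narrowest log2 range of the members, 0.14.

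GAPDH also serves as a reference gene for qPCR, and it was among the references used in the study. Among the other references, RPL37A, a ribosomal protein gene, was at 1096.1, 1080.7, 1111.9 and 1017.9 RPKM, a change of -0.11 at 48 h. TBP, a general transcription factor, was at 13.6, 14.6, 14.8 and 14.3 RPKM, a change of 0.07. These genes were added to the lists after the members had been examined. GAPDH has 65 pseudogenes named after it in GENCODE, PGAM1 13, LDHA 6, TPI1 4, ENO1 4, ALDOA 2, PGK1 2 and HK2 1. How reads shared with such copies were counted is not given in the sources used here, so these levels are less certain than those of GPI and PFKP, which have 0.

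The isozymes of the members were compared at 5 steps. Only genes that reach 4 RPKM in at least 1 library are listed, and of 21 other glycolytic genes 9 were. ADPGK, which phosphorylates glucose with ADP, went from 23.7 to 21.7 RPKM, and BPGM, which makes 2,3-bisphosphoglycerate and has some mutase activity, from 19.2 to 20.9 RPKM. Both were kept out of the shares of a step because of these other roles. HK1, the widely expressed hexokinase, was at 71.5 RPKM at 0 h and 56.4 RPKM at 48 h, a change of -0.34. HK2 made up 30.9% of the summed RPKM of HK1 and HK2 at 0 h and 32.9% at 48 h, so that HK1 stayed the more abundant form throughout.

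The phosphofructokinase step changed its leading gene. PFKP was the most abundant form at 0 h, with 41.0% of the summed RPKM. PFKL, the liver-type form, was at 20.3, 16.7, 19.2 and 28.8 RPKM, and its share went from 30.4% to 45.1%. PFKP then held 28.8% at 48 h. The ratio of PFKP to PFKL was 1.35, 1.52, 1.03 and 0.639 in time order. PFKM, the muscle-type form, went from 19.1 to 16.6 RPKM. The sum of the step was 66.8 RPKM at 0 h and 63.8 RPKM at 48 h.

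Among aldolases, ALDOA gained while ALDOC, a form typical of brain, went from 36.0 to 33.7 RPKM. The ALDOA share of the step was 80.2% at 0 h and 87.0% at 48 h. ENO2, the neuron-type enolase, was at 19.3, 20.9, 26.5 and 34.7 RPKM, a change of 0.81, but ENO1 still made up 96.2% of enolase RPKM at 48 h. PKM, the pyruvate kinase of most tissues, was listed under the symbol PKM2 and went from 490.6 to 496.6 RPKM. LDHB, which favours the conversion of lactate to pyruvate, was at 1056.4, 1115.4, 1091.4 and 1007.4 RPKM. LDHB was 4.15 times LDHA at 0 h and 2.75 times at 48 h, and the LDHA share of the step went from 19.4% to 26.7%.

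**Figure D3:**
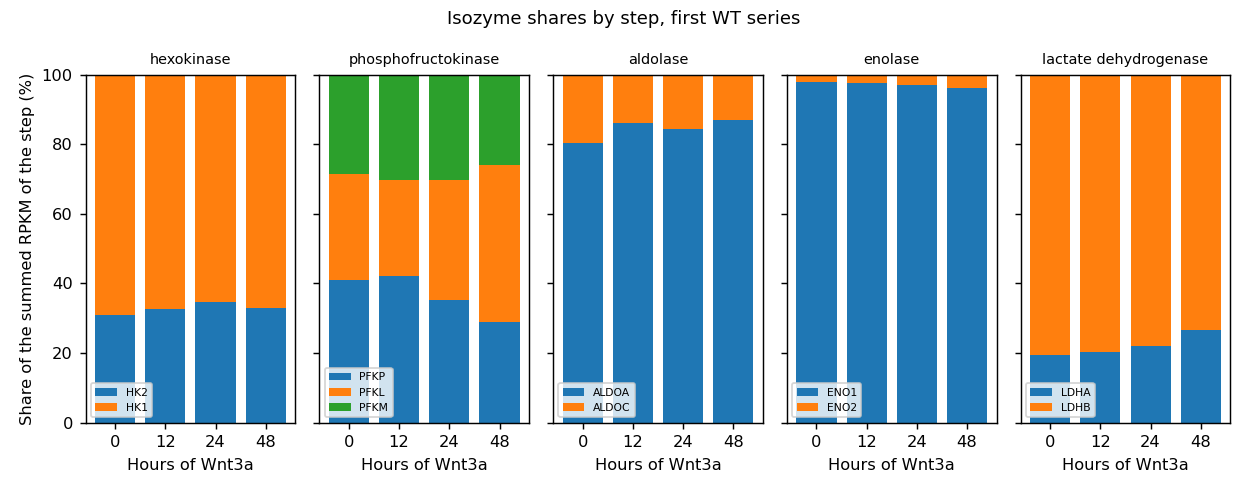
Share (%) of the summed RPKM of each step held by each isozyme shown at 0, 12, 24 and 48 h of Wnt3a in the first WT series, 1 library per bar. The PFKL part grows from 30.4% to 45.1% and the LDHA part from 19.4% to 26.7%, while ENO1 keeps at least 96.2% of its step.

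Genes that feed, drain or regulate the pathway were taken from fixed lists and counted in the first WT series at 48 h with the same 1.5-fold threshold, which 10.4% of all listed genes passed upward and 9.13% downward. Of 10 listed genes of glucose and lactate transport, 2 were higher and 2 lower, with a median of -0.18. SLC16A3 (MCT4), a lactate exporter, was at 11.0, 9.6, 17.3 and 51.0 RPKM, a change of 2.12. SLC16A1 (MCT1), another lactate carrier, went from 351.6 to 270.9 RPKM, and BSG, the chaperone of both, from 413.3 to 338.4 RPKM. SLC2A6, a glucose transporter family member, went from 10.7 to 17.9 RPKM. SLC2A12 and SLC2A4, also of this family, were 0.96 and 0.65 lower on the log2 scale but at or below 5.8 RPKM throughout. SLC2A3 (GLUT3), the most abundant glucose transporter listed, was at 193.1, 224.0, 264.6 and 284.9 RPKM, and its change of 0.56 stayed just inside the threshold.

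Of 4 listed regulators of fructose 2,6-bisphosphate, the activator of phosphofructokinase, 0 passed the threshold. PFKFB3 went from 13.0 to 17.3 RPKM and PFKFB2 from 8.1 to 5.6 RPKM. Of 13 listed genes of pyruvate dehydrogenase and its regulators, 1 was higher and 1 lower. PDK1, a kinase that inhibits the entry of pyruvate into the TCA cycle, was at 11.1, 18.5, 25.6 and 20.1 RPKM, a change of 0.80 at 48 h. PDK3, a related kinase, went from 13.1 to 7.8 RPKM.

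In the branches, 0 of 7 genes of the pentose phosphate pathway and 0 of 5 of the serine and glycine branch passed 1.5-fold. TKT (transketolase) came nearest, going from 303.7 to 209.0 RPKM. Of 10 listed genes of glycogen metabolism and gluconeogenesis, 2 were higher and 1 lower. PGM1, which links glucose 1-phosphate and glucose 6-phosphate, was at 25, 39.4, 63.0 and 101.7 RPKM, a change of 1.98. UGP2, which makes UDP-glucose, was at 290.1, 302.6, 253.6 and 134.2 RPKM, a change of -1.11. GBE1, the glycogen branching enzyme, went from 3.7 to 6.2 RPKM.

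Of 20 TCA cycle genes, 1 was higher and 2 lower, with a median of -0.08 against -0.0027 over all listed genes. SUCLA2, a subunit of succinyl-CoA synthetase, was at 38.0, 57.9, 88.4 and 64.2 RPKM. SDHA, a subunit of succinate dehydrogenase, went from 19.6 to 12 RPKM, and IDH3G, a subunit of isocitrate dehydrogenase, from 10.5 to 6.3 RPKM.

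Transcription factors known to act on glycolytic genes moved in different ways in the first WT series. HIF1A, the oxygen-regulated factor, was at 88.4, 88.5, 85.6 and 89.5 RPKM. In the list of its pathway and hypoxia targets, 5 of 20 listed genes were higher and 1 lower, with a median of 0.25, where 10.4% and 9.13% of all listed genes were past the threshold. The 4 largest changes were those of NDRG1 (1.9 to 4.6 RPKM), EGLN1, a HIF prolyl hydroxylase (3.7 to 7.6 RPKM), BNIP3, a mitophagy receptor (22.8 to 40.1 RPKM), and ADM, a peptide hormone, which was at 74.2, 28.7, 14.8 and 44.4 RPKM. In WT Rep. 2, in contrast, ADM was at 0.53, 0.77, 0.63 and 1.00 of its maximum, so that the direction at 48 h differed between the WT series. MYC was at 95, 79.6, 68.5 and 36.7 RPKM, a change of -1.35, and MYCN at 104.8, 57.8, 43.7 and 48.1 RPKM, a change of -1.11. These decreases were not seen in WT Rep. 2, where MYC was at 0.79, 0.67, 0.74 and 1.00 of its maximum and MYCN at 1.00, 0.90, 0.90 and 0.99. In the clones MYC went from 1.12 to 0.86 (dZF1) and from 1.31 to 0.84 (dZF2) between 0 and 48 h, and MYCN from 1.34 to 0.61 and from 1.43 to 0.77, as multiples of the WT Rep. 2 maximum. In the first WT series, of the 4 genes of the MYC list, 2 were lower at 1.5-fold and 0 higher.

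**Figure D4:**
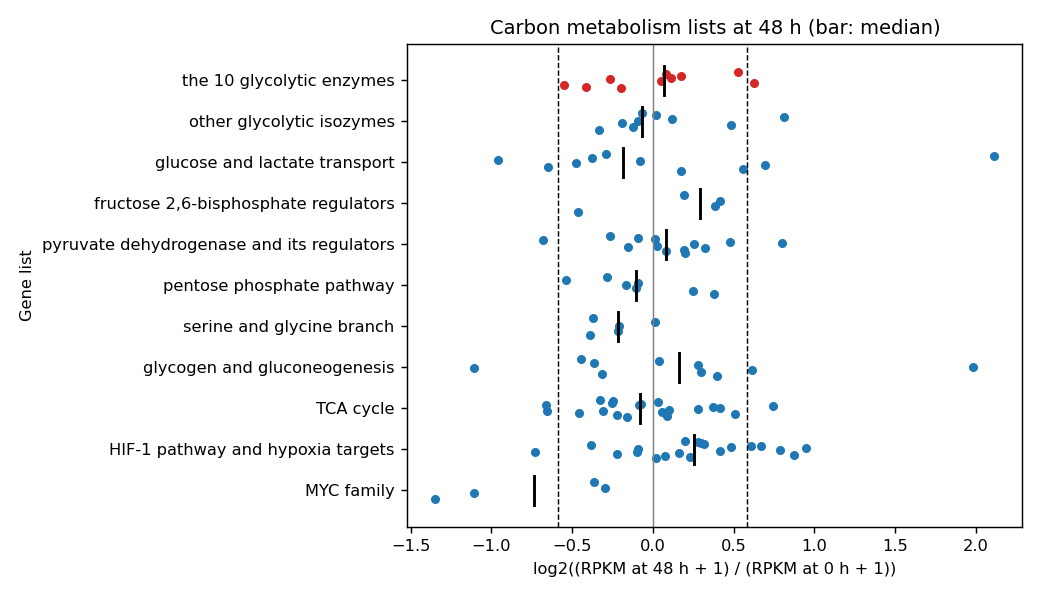
Change at 48 h on the log2(RPKM + 1) scale in the first WT series, each point being 1 listed gene and each black bar the median of its list, with dashed lines at 1.5-fold. The 10 enzymes, in red, have a median of 0.07, SLC16A3 (2.12) and PGM1 (1.98) lie far to the right, and MYC (-1.35), MYCN (-1.11) and UGP2 (-1.11) to the left, of which MYC (0.32) and MYCN (-0.01) did not drop in WT Rep. 2.

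The genes whose changes at 12, 24 and 48 h were nearest to the mean of the 10 enzymes were ING1, ZNF260, TRAK1, COX11 and CHTF8. Their Euclidean distances, over 3 times and among 4286 genes with a mean of at least 20 RPKM, were 0.015 to 0.029, against a median of 0.35. The mean itself was 0.01, 0.03 and 0.01, so these genes are ones that stayed flat, such as ING1 at 26.3, 26.2, 26.7 and 26.5 RPKM.

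In the table with the SP5 mutants, ALDOA was the only one of the 10 members among 497 genes. The genes of this table were selected by the authors for their response to Wnt3a, so that the presence of ALDOA is not independent evidence of a response. Its values are RPKM divided by the gene's highest RPKM in WT Rep. 2, and the first WT series was scaled on its own maximum in a separate table. In WT Rep. 2, ALDOA was at 0.93, 0.79, 0.70 and 1.00 at 0, 12, 24 and 48 h. In dZF1 it was at 0.79, 0.88, 0.76 and 1.01, and in dZF2 at 0.74, 0.69, 0.69 and 0.93. The 3 series overlapped, and the highest value of each was at 48 h.

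The increase of ALDOA seen in the first WT series was much smaller in WT Rep. 2. On the same kind of scale the first series was at 0.65, 0.72, 0.78 and 1.00, which is 53.8% higher at 48 h than at 0 h. In WT Rep. 2 the 48 h value was 7.53% above that at 0 h, and the values at 12 and 24 h were below it. In dZF1 and dZF2 the 48 h value was 27.8% and 25.7% above 0 h. SP5 came up later in WT Rep. 2, with 0.02, 0.02, 0.09 and 1.00 of its maximum, than in the first series, with 0.00, 0.37, 0.67 and 1.00. In dZF1 SP5 was at 0.01, 0.23, 0.90 and 2.54 and in dZF2 at 0.00, 0.62, 0.75 and 2.61, so that a gene-level value does not show the deletion. Whether this timing bears on the ALDOA values was not tested.

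Within the mutant table, the 3 series were also taken as a block in limma to test time against 0 h over all 497 genes. The ALDOA change at 48 h was 0.25 ± 0.15 (SE, 3 series, higher in 3 of 3), with a limma Benjamini-Hochberg adjusted p of 0.171, where 76.5% of the genes had one below 0.05. At 24 h the change was -0.18 ± 0.15 (adjusted p = 0.448, with 19.9% of the genes below 0.05). At 12 h it was -0.06 ± 0.15 (adjusted p = 0.994), and 0 of 497 genes passed after adjustment while 29 had an unadjusted p below 0.05. This block pools WT and mutant lines, and libraries of 1 line are not known to come from separate cultures. Over the same lines SLC16A3 changed by 1.85 ± 0.23 at 48 h (limma adjusted p = 0.000169) and PGM1 by 1.55 ± 0.17 (limma adjusted p = 8.16e-05). PDK1 (1.00) and SUCLA2 (0.83) rose and UGP2 (-0.55) and MYCN (-0.65) fell, each with a limma adjusted p below 0.05 at 48 h. MYC (-0.22 ± 0.23, limma adjusted p = 0.404) and ADM (0.20 ± 0.29, limma adjusted p = 0.564) did not reach this threshold. The fit gives 1 time effect for the 3 lines, which can differ. MYCN changed by -1.07 in dZF1 and -0.85 in dZF2 but by -0.01 in WT Rep. 2. All these genes belong to the authors' selection by response to Wnt3a, so a low p-value here is not independent evidence of a response.

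After 0 h, ALDOA in the clones lay on either side of WT Rep. 2. The mean log2 ratio of both clones to WT Rep. 2, with 0.05 added to each value, was -0.27, -0.02, 0.05 and -0.04 in time order. At 0 h both clones were lower, by -0.22 in dZF1 and -0.31 in dZF2. At 12, 24 and 48 h dZF1 lay above WT Rep. 2 and dZF2 below it. Some of these signs rest on the last decimal given: dZF2 was at 0.69 against 0.70 at 24 h, and dZF1 at 1.01 against 1.00 at 48 h. The median absolute ratio over all 497 genes was 0.35, 0.41, 0.54 and 0.45 at the 4 times, so that ALDOA was below the median at each. After 0 h the ALDOA mean is over clones of opposite sign, which makes it small. Between the clones ALDOA differed by 0.33 at 12 h, above the median difference of 0.22 over the 497 genes. At 0, 24 and 48 h its difference was below the median.

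**Figure D5:**
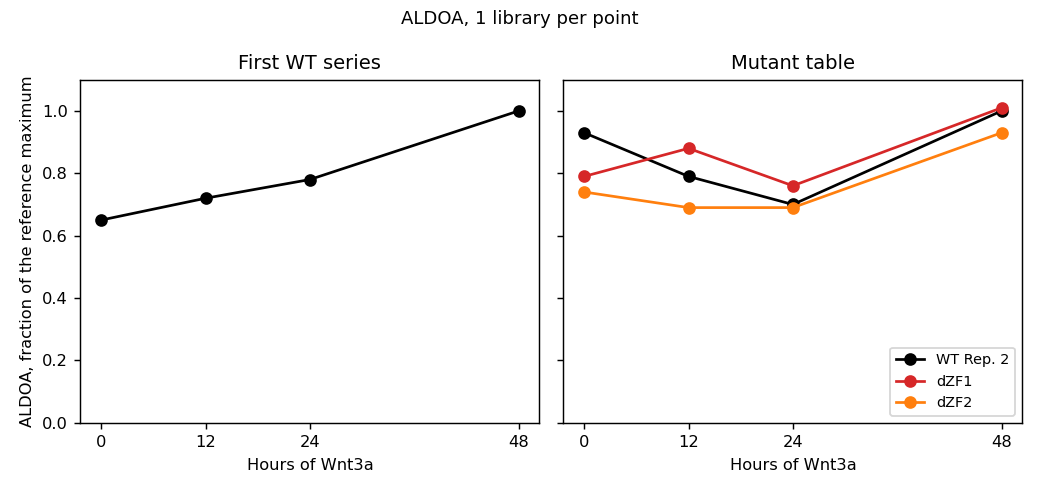
ALDOA as a fraction of its highest RPKM in the first WT series (left) and of its highest RPKM in WT Rep. 2 (right), against hours of Wnt3a, 1 library per point. The first series climbs from 0.65 to 1.00, while WT Rep. 2 dips to 0.70 at 24 h before reaching 1.00, between or beside the clones.

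Of the genes in the mutant table, MAZ, FAM108B1, ANKRD33B, NIPA1 and REST lay nearest to ALDOA over the 12 libraries. Their distances, over log2 values less each gene's own mean, were 0.64 to 0.73, against a median of 2.09 over 496 genes. Small changes bring genes near by this measure, and a shared time course is not implied. Of these genes only NIPA1 was, like ALDOA, highest at 48 h in each series. MAZ was at 1.00, 0.89, 0.90 and 0.87 in WT Rep. 2, lowest at 48 h. The transporter SLC16A3 and the enzymes PGM1, UGP2 and PDK1 were also in this table. SLC16A3 was at 0.15, 0.20, 0.22 and 1.00 in WT Rep. 2, at 0.40, 0.38, 0.37 and 1.75 in dZF1 and at 0.27, 0.25, 0.21 and 0.66 in dZF2. It was highest at 48 h in each series, as in the first one, but the clones lay on either side of WT Rep. 2 at 48 h. PGM1 was at 0.34, 0.40, 0.42 and 1.00 in WT Rep. 2, at 0.30, 0.30, 0.34 and 0.91 in dZF1 and at 0.18, 0.18, 0.29 and 0.74 in dZF2, so that both clones were lower at every time. UGP2 was at 0.99, 1.00, 0.91 and 0.83 in WT Rep. 2, at 0.78, 0.77, 0.73 and 0.40 in dZF1 and at 0.66, 0.64, 0.42 and 0.44 in dZF2, and again both clones were lower throughout. PDK1 was at 0.39, 0.36, 0.47 and 1.00 in WT Rep. 2, at 0.45, 0.50, 0.76 and 0.89 in dZF1 and at 0.35, 0.49, 0.39 and 0.67 in dZF2.

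SP5 binding was compared through the deposited ChIP-Seq peaks on build hg19 (GRCh37). The labels give chromatin from 0 and 24 h, but by their headers both lists rest on the same SP5 ChIP library from Wnt3a-treated cells, called against a control from buffer-treated cells (542 peaks) or from Wnt3a-treated cells (540 peaks). A peak was linked to a gene when its summit lay within 100 kb of a start site. By this rule 0 of 10 members had a peak in either list, where 11.7% of 9619 listed genes with a matching annotation had one. The count covers these lists only. A further SP5 peak list of the study links HK2 with a peak near its start, which no peak of the deposited lists overlaps. That list was not used here, so the count does not show that no member has an SP5 peak. In the deposited lists the nearest summit to any member was 279.8 kb from HK2, at chr2:74781191-74782177, and that to ALDOA was 337.8 kb away. The canonical transcript of ALDOA spans chr16:30077081-30081735 and that of HK2 chr2:75061254-75120486.

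Among the isozymes, HK1 had a summit 0.257 kb from a start site, in the list with the Wnt3a-treated control only. The peak spans chr10:71078142-71079449 with 42 tags, a 4.15-fold enrichment and a false discovery rate of 40.73%. HK1 was at 71.5, 66.4, 62.9 and 56.4 RPKM. The bases around the summit are shown because this was the only peak of either list within 2 kb of a listed glycolytic isozyme. Capitals mark GGGCGG and GGGAGG, on either strand.
HK1 peak summit, chr10:71078802-71079002 (GRCh37), plus strand: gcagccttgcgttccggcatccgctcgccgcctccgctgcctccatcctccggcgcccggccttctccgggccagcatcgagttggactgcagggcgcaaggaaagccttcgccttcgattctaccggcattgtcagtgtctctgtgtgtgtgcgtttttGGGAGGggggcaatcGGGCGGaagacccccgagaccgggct
PFKL had a summit 27.4 kb away and PFKFB3 15.0 kb away in the list with the buffer-treated control, and SLC2A3 had one 23.7 kb away in the other list, with false discovery rates of 76.49%, 70.87% and 21.37%. In the other metabolic lists, IDH3B, a subunit of isocitrate dehydrogenase, had a summit 1.255 kb away in the list with the Wnt3a-treated control (49.07%). SHMT2, a serine hydroxymethyltransferase, had one 10.1 kb away in both lists, with rates of 31% against the buffer-treated and 9.68% against the Wnt3a-treated control. HIF1AN, an inhibitor of HIF1A, had one 43.1 kb away in both, with rates of 9.09% and 0%.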

How the data were processed

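RNA was depleted of ribosomal RNA, sequenced, aligned to hg19 with TopHat and quantified with Cuffdiff, according to the study's methods. The authors deposited RPKM values with 1 decimal for the first WT series (4 libraries). They also deposited each gene's values as a fraction of its highest RPKM. The ratio table of 497 genes holds RPKM of WT Rep. 2, dZF1 and dZF2 (12 libraries) over the highest value in WT Rep. 2. Tag count, fold enrichment, score (-10 times log10 of the p-value) and FDR in percent of each SP5 peak are as deposited from MACS 1.4.2. No counts were given, so depth is unknown. A further deposited table repeats 1000 rows of fractions and was not used. No per-sample column of the expression tables used was left unmapped (0).

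Changes were computed in Python 3.11.15 with pandas 2.3.3 as log2(RPKM + 1) against 0 h, and with 0.05 added in the mutant table. Adding 1 understates the change of low genes. With 1 library per time the first WT series has no test. In the mutant table, time was tested over its 3 lines with limma 3.58.1 (R 4.3.3), with line as a block. Calculations were tested on simulated data. Another isozyme is not reported here. Named were all members, the listed isozymes of their steps with pyruvate kinase, at most 4 genes per other list that changed at least 1.5-fold at 48 h, and the 5 genes nearest to the mean of the members and to ALDOA. A few neighbours below this threshold, such as SLC16A1, BSG, SLC2A3, PFKFB2, PFKFB3, TKT and HIF1A, were named after their values were seen. The members and lists were chosen with earlier results of these data known. Gene starts came from GENCODE v44lift37, and the promoter windows from RefSeq held all 10 members.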

Additional observations from a re-analysis of the deposited data

Results flagged for a closer look

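SLC16A3, the lactate exporter, changed in opposite directions at 24 h in both WT series and both clones. Its log2 change from 0 h was 0.61 in the first WT series and 0.43 in WT Rep. 2, but -0.10 in dZF1 and -0.30 in dZF2. The mean change of the clones was lower than that of the WT series by -0.72. For these changes 1 was added to RPKM in the first WT series and 0.05 to the values of the other series. The level itself was not lower in both clones before or at this time. SLC16A3 was at 0.40 in dZF1 and 0.27 in dZF2 at 0 h, against 0.15 in WT Rep. 2. At 24 h it was at 0.37 and 0.21, against 0.22. UGP2 changes also had opposite signs, at 12 h and with much smaller values, 0.06 and 0.01 in the WT series and -0.02 and -0.04 in the clones, a difference of -0.067. These signs rest on the last decimal given. UGP2 went from 0.99 to 1.00 in WT Rep. 2, from 0.78 to 0.77 in dZF1 and from 0.66 to 0.64 in dZF2. Neither difference was tested, since each value rests on 1 library, the first WT series was scaled in another table, and both genes belong to the authors' selection.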

How the results depend on the processing

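No paired analysis was possible because the 2 WT series that share time points were scaled in separate tables, each with 1 library per time, and tests were kept within a table. The fit of time with line as a block, in the mutant table alone, was added after seeing the data. With each line left out its ALDOA change at 48 h was 0.21 to 0.32 (log2), with adjusted p from 0.113 to 0.564. With a 2-fold threshold 0 members were higher at 48 h. With the looser threshold of 0.32 (log2) 2 were higher and 2 lower at 48 h, and 1 was lower at 24 h. Against 12 h, an alternative chosen after seeing the data, 0 members were higher at 48 h and their median change was -0.038. Pseudocounts of 0.1 and 5, division by the summed RPKM, centring on the median gene and leaving out GAPDH kept the member counts at 12, 24 and 48 h and moved each median by less than 0.1. The shares of listed genes past 1.5-fold dropped among genes with a mean of at least 20 RPKM, to 1.89% higher and 0.863% lower at 12 h, 3.94% and 2.31% at 24 h, and 6.07% and 5.48% at 48 h. With 5 added they were 1.35% and 1.04%, 3.31% and 2.26%, and 6.61% and 4.61%. Relative to the 0 h library of the same line, ALDOA in the clones exceeded WT Rep. 2 by 0.25, 0.31 and 0.23 (log2) at 12, 24 and 48 h. These values rest on the 0.93 of WT Rep. 2 at 0 h. Leaving out either clone gave ALDOA ratios of -0.31 and -0.22 without Wnt3a, -0.18 and 0.15 after 12 h, -0.02 and 0.11 after 24 h, and -0.10 and 0.01 after 48 h. The sign after 0 h depends on the clone, and at 24 and 48 h partly on the last decimal given. Pseudocounts of 0.01 and 0.2 moved the ratio by less than the SD between the clones. The count of members with an SP5 peak was 0 under every distance, false discovery rate and deposited list tried. The study's further list, which links HK2 with a peak, was not among them.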
